A study of Oncorhynchus mykiss with 6 samples.

Results

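Copies of the genes for periostin, SPARC, tenascin-C, the thrombospondins, fibronectin and the lysyl oxidases were followed in dorsal skin of yellow mutant rainbow trout (Oncorhynchus mykiss). They were taken as every row of the deposited gene table whose symbol, apart from case and a copy ending, was postn, sparc, sparcl1, tnc, fn1, lox, loxl1, loxl2, thbs1 or thbs2. This gave 40 of the 43862 genes. No row had the symbol sparcl1, and the rows for loxl2 all had the symbol loxl2b. The study profiled skin RNA over development to find genes tied to skin colour. Libraries of total RNA from fish of 90 days (3 libraries) and of 1 day (3 libraries) were compared, all of the yellow mutant and from dorsal skin, so ages were compared and colours were not. A further stage that the design text speaks of was not analysed here. Whether a library is 1 fish or a pool is not stated, nor whether libraries of an age are separate fish, so p-values here cover only library-to-library spread, possibly technical.

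Periostin, SPARC, tenascins and thrombospondins are matricellular proteins: they sit in the extracellular matrix, bind collagen, growth factors or cell receptors, and tune how matrix is assembled and how cells hold on to it. Fibronectin forms fibrils onto which collagen and other matrix proteins are laid. Lysyl oxidases are secreted copper enzymes that oxidise lysines of collagen and elastin, the step from which the covalent cross-links of tensile tissue arise. In skin these genes are known mainly from dermal fibroblasts, and several are also used in tendon, cartilage, bone and the nervous system. Salmonids descend from an ancestor that doubled its genome, so many of these genes have several copies. Copies are told apart by the gene number the deposited table gives, in brackets after each symbol.

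Total counts ran from 16157312 to 18960866 per library at day 90 and from 17795175 to 18395388 at day 1. Epidermis markers were present at both ages, with a summed level of 6535 to 8009 FPKM (fragments per kilobase of gene, scaled by library size) at day 90 and 1712 to 1810 FPKM at day 1, and 25 of 34 tested rows were higher at day 90 and 4 lower. Fibroblast markers summed to 2396 to 2710 FPKM at day 90 and 277 to 361 FPKM at day 1, with 12 of 15 tested rows higher and 1 lower. Osteoblast and scale markers summed to 76.5 to 113 FPKM at day 90 and 34.2 to 43.3 FPKM at day 1, with 7 of 10 tested rows higher and 2 lower. Osteocalcin, bglap (110486465), which marks mature osteoblasts, had 27.4, 2.84 and 2.27 FPKM at day 90 and no count at day 1. Endothelium markers summed to 40.8 to 47.5 FPKM at day 90 and 26.4 to 34.5 FPKM at day 1, with 6 of 8 tested rows higher and none lower. The epidermis, fibroblast, osteoblast and endothelium lists were thus mostly higher at day 90. Among tested rows, periostin had 4 higher and 0 lower at day 90, SPARC 3 and 1, and LOX 3 and 2. TNC had 2 higher and 3 lower, THBS1 1 and 2, and FN1 1 and 1. THBS2 had 2 higher and 0 lower, LOXL1 2 and 0, and loxl2b 3 and 0. The part of these cell types in those changes was not tested. Markers of other tissues were high at day 1. Lens and retina rows summed to 93.3 to 102 FPKM at day 90, where 30 of 55 rows had no count, and 2485 to 3141 FPKM at day 1. Most of that day 90 sum came from RHOA and RHOB rows, GTP-binding proteins that the copy ending matched to rho, for rhodopsin. Among them, Rhoa (100305156) had 37.19, 35.56 and 36.85 FPKM and RHOB (110529387) 23.15, 18.87 and 17.93 FPKM at day 90. Neural and glial rows summed to 122 to 136 FPKM at day 90 and 1373 to 1547 FPKM at day 1, and liver rows to 150 to 170 FPKM and 725 to 1357 FPKM. Most of the day 90 liver sum came from tf (100136298), for transferrin, with 99.6, 111 and 96.4 FPKM. It had 67.6, 118 and 122 FPKM at day 1. Cartilage and notochord rows summed to 118, 46.1 and 46.2 FPKM at day 90 and to 890, 846 and 539 FPKM at day 1, and skeletal muscle rows to 7896, 2292 and 2150 FPKM at day 90 and 14910, 15580 and 18750 FPKM at day 1. In both of these lists day 90 replicate 1 stood above the other libraries of its age. In RNA of whole tissue a smaller share of a cell type and less RNA per cell cannot be told apart. The day 1 libraries, labelled dorsal skin, thus held marker RNA of lens, retina, liver and other tissues. A change between the ages therefore need not be a change within skin.

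Most copies were higher at 90 days, but the symbols SPARC, TNC, THBS1, FN1 and LOX had rows that went both ways. For SPARC the tested row that fell carries the product name SPARC-like protein 1. Genes were tested when they had at least 1 FPKM in at least 3 of the 6 libraries, which 36 of the 40 copies met. Of these 36, 21 were higher at day 90, 9 lower and 6 did not pass an adjusted p of 0.05 in the quasi-likelihood test of edgeR. The 30 called make 83.3% of the copies tested, against 67.9% of the 29436 genes tested in all, of which 32.5% were higher and 35.4% lower. The median log2 fold change of day 90 over day 1 was 1.07 for the copies tested and -0.03 for all genes tested. A change of at least 4-fold was called upward for 11 copies and downward for 6, against 5.82% and 14.0% of all genes tested. Day 90 and day 1 libraries had no overlap in FPKM for 32 copies, against 75.2% of all genes tested. For 5 copies the minimum of 1 FPKM was met by libraries of 1 age alone, so that these had to differ: SPARC (110522192) through day 90, and SPARC (110534308), Thbs1 (100136651), Lox (110508305) and Lox (110530787) through day 1.

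**Figure D1:**
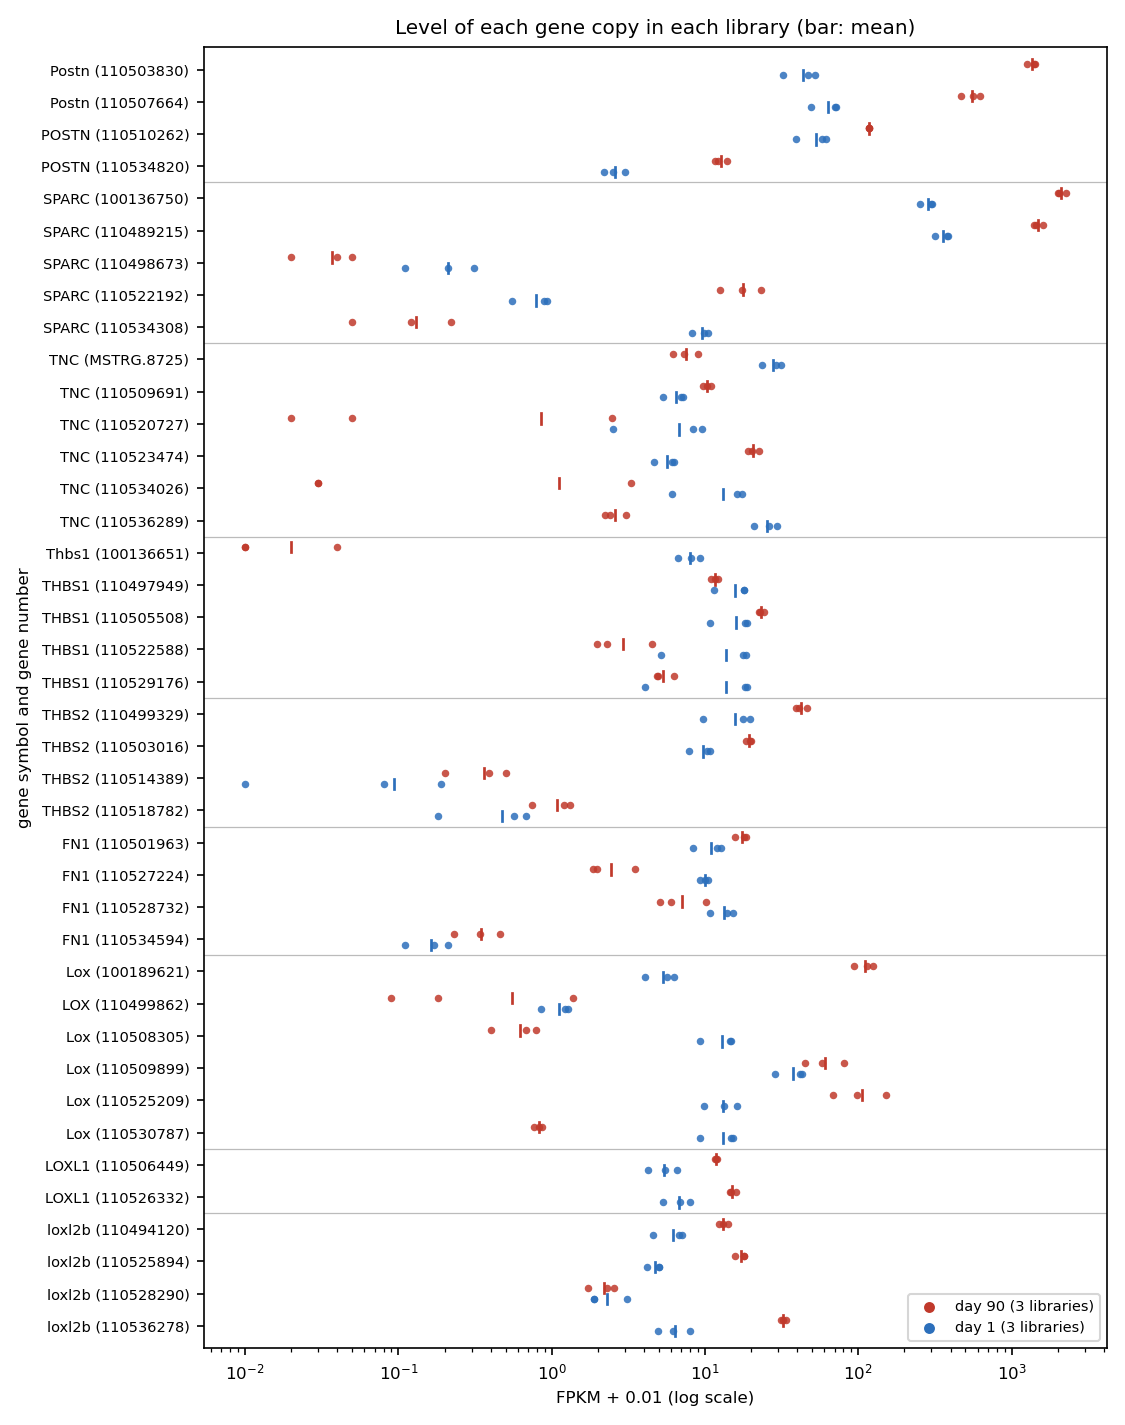
FPKM of all 40 copies in each library on a log axis, with 0.01 added, red points for day 90 and blue for day 1 and a bar at the mean of 3 libraries. SPARC (100136750) and Postn (110503830) reached 2264 and 1416 FPKM at day 90, while the Lox, TNC and SPARC symbols each held copies whose red points lay left of the blue ones.

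Periostin rose in all of its 4 copies. Postn (110503830) stood at 1269, 1411 and 1416 FPKM at day 90 and at 52.4, 46.6 and 32.2 FPKM at day 1. Its log2 fold change was 5.35 ± 0.22 (SE; edgeR, adjusted p = 8.38e-08), a rise of 40.9-fold. With library size alone it was 4.97. The fold changes of edgeR are TMM-scaled and the FPKM are not. Rises given by edgeR are therefore larger than those of the FPKM printed beside them, and falls are smaller. Postn (110507664) had 465, 627 and 560 FPKM at day 90 and 71.2, 70.1 and 49.2 FPKM at day 1, and rose by 3.50 ± 0.19 on the log2 scale (edgeR, adjusted p = 3.79e-07). The ages of both copies lay far apart and the spread within an age was small beside that gap. POSTN (110510262), which the RefSeq table names postna, was even among the day 90 libraries at 118, 117 and 118 FPKM, against 61.9, 57.7 and 39.2 FPKM at day 1. It rose less, by 1.54 ± 0.17 (edgeR, adjusted p = 3.28e-05). POSTN (110534820) was the least abundant, with 12.6 ± 1.2 FPKM at day 90 and 2.56 ± 0.40 FPKM at day 1 (SD, n = 3 each), and rose by 2.70 ± 0.15. The order of the mean levels at day 90 was 110503830, 110507664, 110510262 and 110534820, each apart from the next by more than their spread. At day 1 the first 3 of these had 43.7 ± 10.4, 63.5 ± 12.4 and 52.95 ± 12.05 FPKM, whose SDs overlap, but the order within each day 1 library was the same, with 110507664 above 110510262 and that above 110503830.

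SPARC, a collagen-binding calcium protein of bone and dermis, was the most abundant of the genes. SPARC (100136750) had 2001, 2264 and 2051 FPKM at day 90 and 303, 299 and 253 FPKM at day 1, and rose by 3.27 ± 0.15 on the log2 scale (edgeR, adjusted p = 1.74e-07). SPARC (110489215) had 1397, 1597 and 1449 FPKM at day 90 and 382, 380 and 317 FPKM at day 1, and rose by 2.43 ± 0.15 (edgeR, adjusted p = 7.51e-07). The rank of these copies changed with age: 100136750 was the higher in each day 90 library and 110489215 in each day 1 library. The log2 ratio of the first copy to the second was 0.51 ± 0.01 at day 90 and -0.34 ± 0.01 at day 1 (SD, n = 3 each). A two-sided exact permutation test of that ratio gave p = 0.1, the smallest that 3 against 3 allows. SPARC (110522192) was scarce, with 17.5, 23.3 and 12.5 FPKM at day 90 and 0.88, 0.92 and 0.54 FPKM at day 1, and rose by 4.89 ± 0.30.

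Under the symbol SPARC also stood a pair of rows whose deposited product name is SPARC-like protein 1, a relative known in mammals mainly from brain and vessels. Both were lower in every day 90 library than in any day 1 library. SPARC (110534308), which the RefSeq table names sparcl1, had 0.11, 0.21 and 0.04 FPKM at day 90 and 10.4, 9.90 and 8.23 FPKM at day 1, and fell by 5.94 on the log2 scale (log2 fold change -5.94 ± 0.30, edgeR adjusted p = 2.66e-07). SPARC (110498673) was below the filter, with 1, 2 and 3 counts at day 90 and 23, 8 and 16 counts at day 1. In the same day 1 libraries the neural and glial markers were high, with 22 of 26 tested rows lower at day 90 and 1 higher, and their part in this fall was not tested.

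Rows with the symbol TNC, for tenascin-C, changed in opposite directions among 6 copies, with 2 higher, 3 lower and 1 not past the threshold. Tenascin-C is a large hexameric protein of developing and stressed connective tissue. The deposited product name of all 6 is tenascin-like, and the RefSeq table names none of them tnc. It names TNC (110523474) zmp:0000000846, so the rows may not all be copies of the same tenascin gene. TNC (110523474) had 22.6, 20.4 and 19.1 FPKM at day 90 and 6.25, 6.10 and 4.63 FPKM at day 1, and rose by 2.31 ± 0.16 (edgeR, adjusted p = 1.5e-06). TNC (110509691) had 10.95, 9.75 and 10.35 FPKM at day 90 and 7.15, 7 and 5.32 FPKM at day 1, and rose by 1.06 ± 0.13 (edgeR, adjusted p = 6.81e-05). These risen copies were among the lower ones at day 1 and the highest ones at day 90. TNC (110536289) had 3.05, 2.23 and 2.40 FPKM at day 90 and 29.7, 26.2 and 20.8 FPKM at day 1, and fell by 2.92 on the log2 scale (-2.92 ± 0.19, edgeR adjusted p = 9.75e-07). TNC (MSTRG.8725), an assembled locus outside the annotation, had 8.98, 6.15 and 7.34 FPKM at day 90 and 31.5, 28.9 and 23.6 FPKM at day 1 (-1.51 ± 0.18). Neither age overlapped the other in any of these 4 copies.

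The other TNC rows were nearly silent in day 90 skin except for 1 library. TNC (110534026) had 333, 2 and 2 counts at day 90 and 1669, 1542 and 598 at day 1, which is 3.27, 0.02 and 0.02 FPKM and 17.4, 16.1 and 6.04 FPKM. It was called lower (-3.08 ± 1.07, edgeR adjusted p = 0.0286), but the call was lost with DESeq2 (adjusted p = 0.123) and without day 1 replicate 1, day 1 replicate 2 or day 90 replicate 2 (0.0626 to 0.0737). Without day 90 replicate 1 it was lower by a larger amount (-8.78, edgeR adjusted p = 5.24e-06). TNC (110520727) had 253, 4 and 1 counts at day 90 and 800, 912 and 248 at day 1 and did not pass (-2.51 ± 1.03, edgeR adjusted p = 0.055). Without day 90 replicate 1 its log2 fold change was -7.52 (edgeR, adjusted p = 4.39e-05). That library was picked by its level, so that fit is no test of a fall. Without day 1 replicate 3 the adjusted p of edgeR was 0.0491, and without any other library it was 0.0919 to 0.142. MATN1 (110496845), for the cartilage protein matrilin-1, had 42.6, 0.07 and 0.03 FPKM in the same day 90 libraries and 152, 147 and 49.8 FPKM in the day 1 libraries. It was thus high and low in the same libraries as both tenascin copies. Other cartilage rows did not all share this day 90 pattern. HAPLN1 (110535717) was highest in day 90 replicate 1, at 28.4, 8.65 and 8.62 FPKM. SOX9 (110486965), at 2.96, 4.74 and 4.19 FPKM, and HAPLN1 (110509631), at 8.45, 11.6 and 11.5 FPKM, were lowest in it. The part of cartilage in the levels of the tenascin copies was not tested. A level at least 4 times the mean of the other day 90 libraries (0.1 FPKM added) was found in day 90 replicate 1 for 3 of the 36 copies, 8.33%, and for 0.306% of all genes tested.

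**Figure D2:**
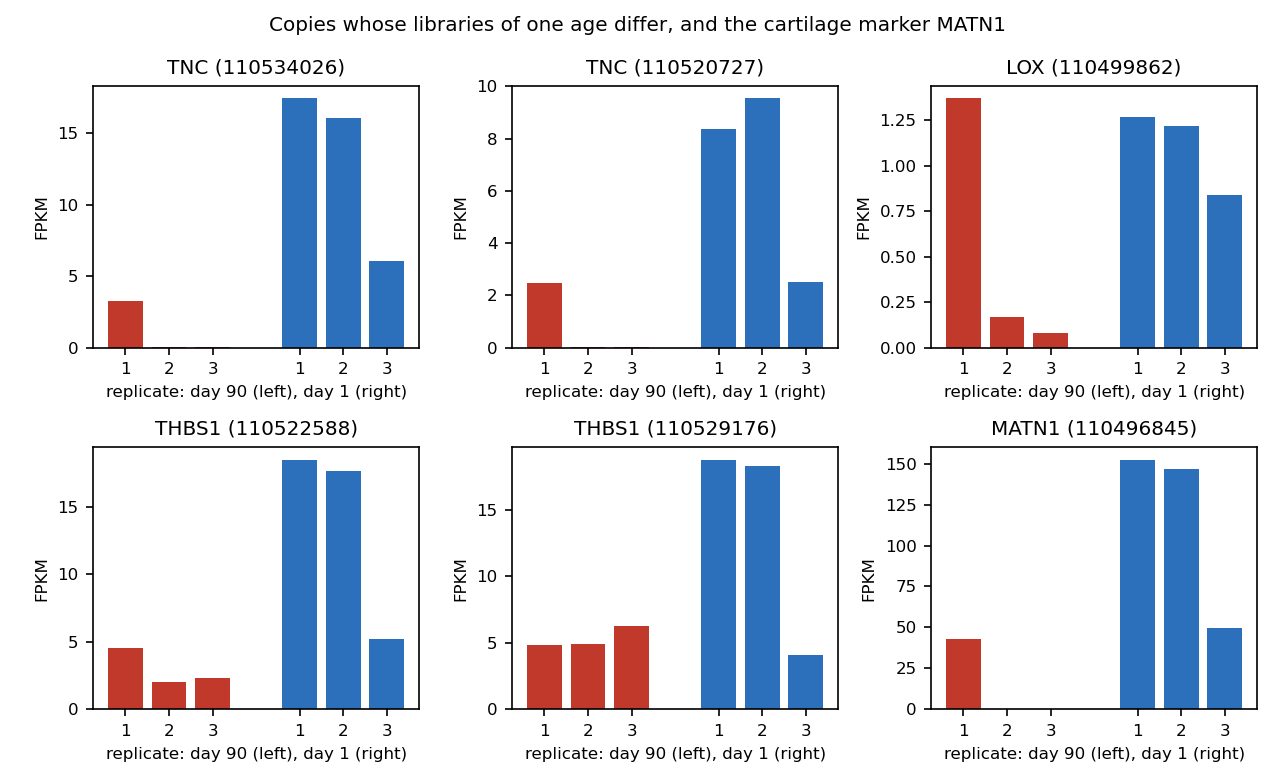
FPKM by library of 5 copies whose libraries of 1 age differed and of the cartilage marker MATN1, with red bars for day 90 and blue for day 1, replicates 1 to 3 from left to right. In TNC (110534026), TNC (110520727), LOX (110499862) and MATN1 (110496845) day 90 replicate 1 stood above the other day 90 libraries, and in both TNC copies, both THBS1 copies and MATN1 day 1 replicate 3 stood below the other day 1 libraries.

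Thrombospondin-1, which binds CD36, CD47 and integrins and can activate latent TGF-beta, had 1 copy that rose, 2 that fell (1 of them with the product name properdin) and 2 that did not pass. THBS1 (110505508) had 22.6, 24.2 and 22.9 FPKM at day 90 and 18.7, 18.1 and 10.7 FPKM at day 1, and rose by 0.95 ± 0.18 (edgeR, adjusted p = 0.00135). THBS1 (110497949) had 11.6, 12.1 and 10.9 FPKM at day 90 and 17.8, 18.1 and 11.5 FPKM at day 1, which overlap, and did not pass (-0.06 ± 0.16, edgeR adjusted p = 0.753). These 2 copies had like levels at day 1 and differed at day 90, with a log2 ratio of 1.0 ± 0.06 at day 90 and -0.01 ± 0.09 at day 1 (exact permutation p = 0.1). THBS1 (110522588), named thbs1b in the RefSeq table, had 4.51, 1.98 and 2.30 FPKM at day 90 and 18.5, 17.7 and 5.17 FPKM at day 1, and was called lower (-1.80 ± 0.47, edgeR adjusted p = 0.00705). THBS1 (110529176) had 4.85, 4.93 and 6.25 FPKM at day 90 and 18.8, 18.3 and 4.08 FPKM at day 1, and did not pass (-0.96 ± 0.44, edgeR adjusted p = 0.0769). Its day 1 replicate 3 lay under the day 90 libraries. Without that library its log2 fold change was -1.39 (edgeR, adjusted p = 4.08e-05). The library was picked by its level, so that fit is no test of a fall. Without any other library the copy did not pass (edgeR, adjusted p of 0.101 to 0.243). Thbs1 (100136651) carries the product name properdin, a complement protein with thrombospondin repeats, so symbol and name disagree. It had 0, 1 and 0 counts at day 90 and 213, 262 and 308 at day 1, a ratio of scaled counts of day 1 over day 90 of 576 (95% exact binomial interval 103 to 22800, counting error only; edgeR, adjusted p = 3.64e-07).

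Thrombospondin-2, a relative that in mice limits vessel growth and shapes collagen fibrils of the skin, rose in both tested copies. THBS2 (110499329), named thbs2a in the RefSeq table, had 39.0, 41.1 and 46.6 FPKM at day 90 and 19.5, 17.7 and 9.68 FPKM at day 1 (log2 fold change 1.82 ± 0.22, edgeR adjusted p = 6.26e-05). THBS2 (110503016) had 18.5, 19.9 and 19.6 FPKM at day 90 and 10.3, 10.8 and 7.82 FPKM at day 1 (1.38 ± 0.13, edgeR adjusted p = 1.04e-05). Every day 90 library was above every day 1 library in both. Below the filter, THBS2 (110518782) had 0.73, 1.3 and 1.19 FPKM at day 90 and 0.56, 0.67 and 0.17 FPKM at day 1, and THBS2 (110514389) had 22, 25 and 9 counts and 9, 0 and 4 counts.

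The symbol FN1, for fibronectin, differed between the ages in its most abundant row. FN1 (110501963), named fn1a in the RefSeq table, had 17.9, 15.8 and 18.4 FPKM at day 90 and 12.7, 12.1 and 8.34 FPKM at day 1, and rose by 1.05 ± 0.16 (edgeR, adjusted p = 0.000294). FN1 (110527224) had 3.51, 1.96 and 1.86 FPKM at day 90 and 10.03, 10.5 and 9.34 FPKM at day 1, and was called lower (-1.63 ± 0.24, edgeR adjusted p = 0.000259). FN1 (110528732) had 10.1, 5.06 and 6.03 FPKM at day 90 and 13.9, 15.3 and 10.8 FPKM at day 1 and did not pass (-0.51 ± 0.26, edgeR adjusted p = 0.11). Without day 90 replicate 1, the highest of its age, the log2 fold change of this last copy was -0.94 (edgeR, adjusted p = 0.000309). That library was picked by its level, so the fit is no test of a fall. Without any other library the copy did not pass (edgeR, adjusted p of 0.105 to 0.277). The liver makes plasma fibronectin, and 20 of 24 tested liver rows were lower at day 90. Liver rows summed to 725, 1237 and 1357 FPKM in day 1 replicates 1 to 3. FN1 (110527224) and FN1 (110528732) were both lowest of day 1 in replicate 3. The part of liver in the levels of these copies was not tested. FN1 (110534594), with the product name mucin-5AC, was below the filter at 0.33 ± 0.12 FPKM at day 90 and 0.15 ± 0.05 FPKM at day 1.

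The symbol LOX, for lysyl oxidase, had 6 rows with the product name protein-lysine 6-oxidase-like, of which 3 rose, 2 fell and 1 did not pass. Lox (110525209) shared at most 2 neighbouring gene symbols with any other LOX row, in the comparison of chromosome neighbours below. The rows may therefore not all be copies of the same gene. Lox (100189621), named loxa in the RefSeq table, had 93.7, 125 and 113 FPKM at day 90 and 6.24, 5.64 and 4.03 FPKM at day 1, and rose by 4.77 ± 0.18 (edgeR, adjusted p = 6.42e-08), a rise of 27.3-fold. Lox (110525209) had 68.2, 98.5 and 151 FPKM at day 90 and 16.2, 13.3 and 9.87 FPKM at day 1, and rose by 3.39 ± 0.28 (edgeR, adjusted p = 4.56e-06). Lox (110509899) was the most abundant copy at day 1, with 41.5, 43.0 and 28.6 FPKM, and had 44.8, 57.8 and 80.7 FPKM at day 90, a smaller rise of 1.07 ± 0.20 (edgeR, adjusted p = 0.00114). At day 90 the 3 copies stood at 111 ± 16, 106 ± 42 and 61.1 ± 18.1 FPKM, the first 2 within each other's spread.

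The fallen LOX copies had nearly equal levels to each other at each age. Lox (110508305) had 0.78, 0.39 and 0.67 FPKM at day 90 and 14.7, 14.6 and 9.30 FPKM at day 1 (-3.98 ± 0.26, edgeR adjusted p = 1.24e-06). Lox (110530787) had 0.82, 0.86 and 0.76 FPKM at day 90 and 14.9, 15.3 and 9.25 FPKM at day 1 (-3.62 ± 0.21, edgeR adjusted p = 6.49e-07). LOX (110499862) had 1.37, 0.17 and 0.08 FPKM at day 90 and 1.27, 1.22 and 0.84 FPKM at day 1, and did not pass (-0.56 ± 0.74, edgeR adjusted p = 0.519). Its day 90 replicate 1 lay at the level of day 1. Without that library its log2 fold change was -2.77 (edgeR, adjusted p = 0.000374). The library was picked by its level, so that fit is no test of a fall. Without day 1 replicate 1 or 2 the copy did not pass (edgeR, adjusted p = 0.664 and 0.645).

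Relatives LOXL1, which in mice is needed to renew elastic fibres, and LOXL2, which cross-links collagen IV, were higher at day 90 in all copies but 1. LOXL1 (110526332) had 14.5, 15.8 and 14.8 FPKM at day 90 and 8, 6.84 and 5.31 FPKM at day 1 (1.55 ± 0.14, edgeR adjusted p = 8.21e-06). LOXL1 (110506449) had 11.9, 11.7 and 11.8 FPKM at day 90 and 6.52, 5.48 and 4.21 FPKM at day 1 (1.52 ± 0.14). The log2 ratio between these copies was 0.35 ± 0.08 at day 90 and 0.31 ± 0.02 at day 1 (exact permutation p = 0.8), so no difference in that ratio was detected, a difference of 0.04 with overlapping libraries. Under the symbol loxl2b, the genes 110494120 and 110528290 carry a product name of lysyl oxidase homolog 2A, so symbol and name disagree there too. The copy loxl2b (110536278) had 31.5, 32.5 and 33.6 FPKM at day 90 and 7.95, 6.21 and 4.95 FPKM at day 1 (2.74 ± 0.16, edgeR adjusted p = 5.99e-07). For loxl2b (110525894) the levels were 17.2 ± 1.3 FPKM at day 90 and 4.72 ± 0.48 FPKM at day 1 (2.25 ± 0.13), and for loxl2b (110494120) 13.2 ± 0.9 and 6.13 ± 1.35 FPKM (1.51 ± 0.16; SD, n = 3 each). In loxl2b (110528290) the ages overlapped, with 2.54, 2.30 and 1.71 FPKM at day 90 and 3.07, 1.87 and 1.87 FPKM at day 1 (0.34 ± 0.25, edgeR adjusted p = 0.242).

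**Figure D3:**
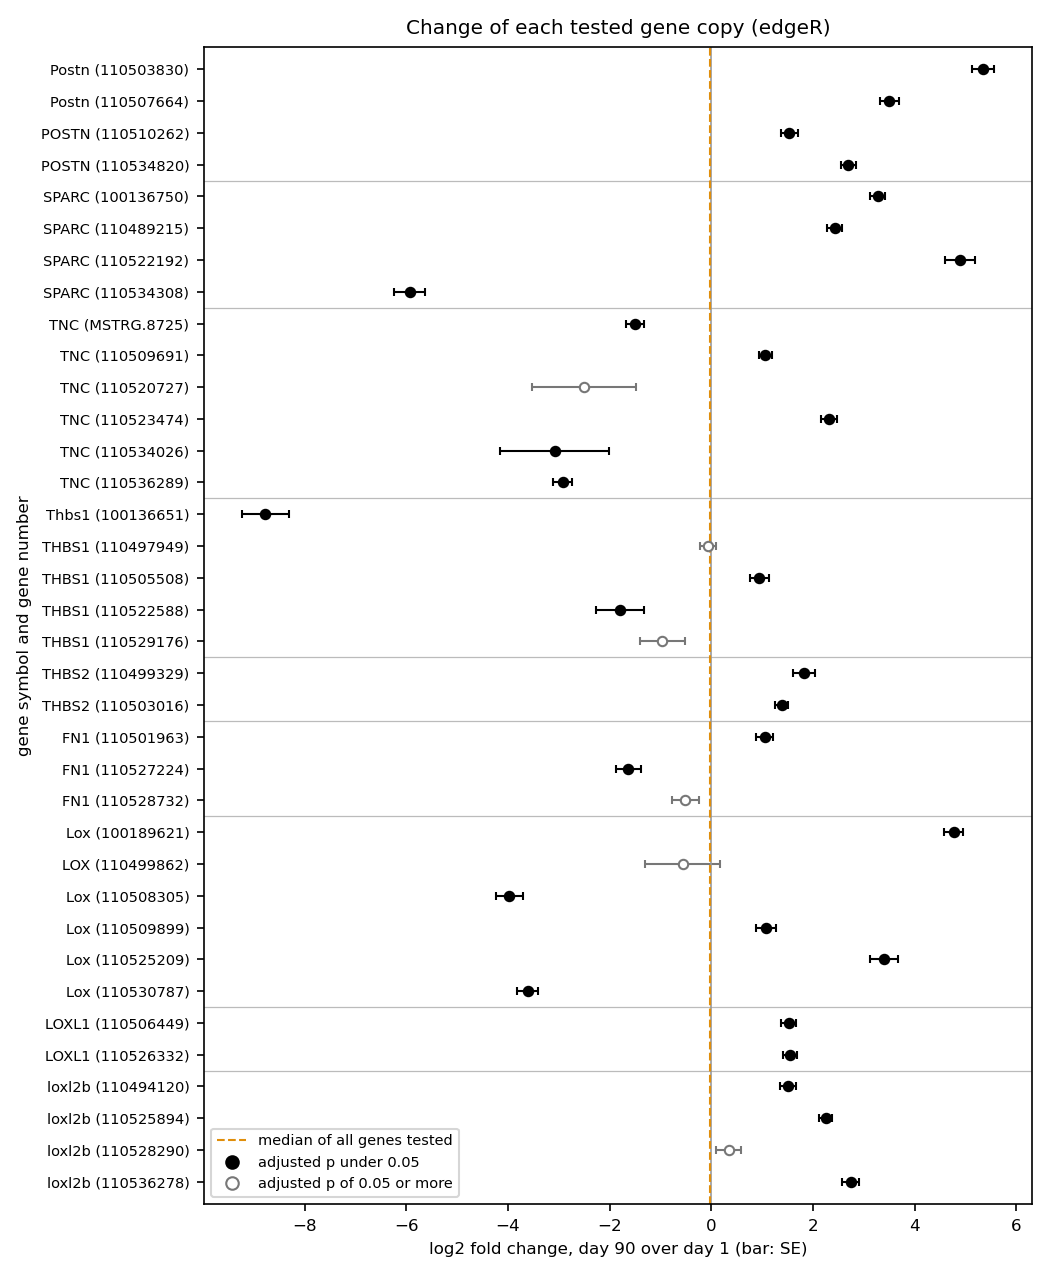
Log2 fold change of day 90 over day 1 with its SE for the 36 copies tested, grouped by symbol, with filled points past the adjusted p of 0.05 and a dashed line at the median of all genes tested, -0.03. All tested points of postn, thbs2, loxl1 and loxl2 lie right of 0 (loxl2b (110528290), not past the threshold, changes sign with library size alone or limma), while sparc, tnc, thbs1, fn1 and lox have points on both sides.

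Summed over copies, FPKM was higher at day 90 for 6 of the 9 symbols and lower for 3. Periostin summed to 1866, 2167 and 2106 FPKM at day 90 and to 188, 177 and 123 FPKM at day 1, a ratio of means of 12.6. SPARC summed to 3604 ± 247 and 655 ± 66 FPKM, LOX to 280 ± 69 and 83.2 ± 18.5 FPKM, and loxl2 to 65.0 ± 0.7 and 19.5 ± 3.8 FPKM (day 90 and day 1, SD, n = 3 each). THBS2 and LOXL1 were 2.43 and 2.22 times as high at day 90. Each of these 6 sums gave an exact permutation p of 0.1, the smallest possible. The rows with the symbol TNC summed to 51.3, 38.6 and 39.2 FPKM at day 90 and 100, 93.8 and 62.9 FPKM at day 1, also with p = 0.1 by that exact test. Thrombospondin-1 at 43.0 ± 0.7 and 67.1 ± 22.8 FPKM (exact p = 0.4) and fibronectin at 27.2 ± 4.3 and 34.4 ± 5.1 FPKM (exact p = 0.2) overlapped between the ages. Adjusted over the 9 sums, the lowest p was 0.129. CPM here means counts scaled by library size and TMM factor, but not by gene length. For fibronectin the direction depended on the measure. The log2 ratio of the age means was -0.34 in FPKM of all copies and 0.15 in CPM of the tested copies. For thrombospondin-1 it was -0.64 in FPKM and -0.03 in CPM. That sum includes Thbs1 (100136651), named properdin, with a mean of 8.01 FPKM at day 1 and 0.01 FPKM at day 90. The sign near 0 in CPM is therefore not that of thrombospondin-1 alone, and a sum without this row was not made. Rows named SPARC-like protein 1 and mucin-5AC are likewise part of the SPARC and fibronectin sums in FPKM. For the symbol TNC the log2 ratio was -0.99 in FPKM and -0.56 in CPM, where the exact permutation p was 0.2. Rows of TNC and of LOX may not all be copies of the same gene, nor may those of other symbols. By the chromosome neighbours compared below, SPARC (110522192) shared 0 neighbour symbols with each other SPARC row. FN1 (110501963) shared at most 3 with any other FN1 row. The THBS2 rows below the filter shared 1 with each other THBS2 row. The loxl2b rows named 2A shared 0 or 2 with those named 2B. Each sum is therefore a sum over a symbol.

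Several symbols differed between the ages in which copy led. Postn (110503830) held 66.8 ± 1.5% of the periostin sum at day 90 and 26.8 ± 0.9% at day 1. Lox (100189621) held 40.5 ± 6.8% of the LOX sum at day 90 and 6.39 ± 0.28% at day 1, while Lox (110508305) held 0.23 ± 0.12% and 15.4 ± 0.3%. TNC (110523474) held 48.5 ± 4.4% of the sum of TNC rows at day 90 and 6.70 ± 0.59% at day 1, and FN1 (110501963) 64.5 ± 7.1% and 31.8 ± 2.7% of the fibronectin sum. For TNC, LOX and FN1 these are shares among rows of a symbol, which may not all be copies of the same gene. For LOXL1 the share of 110526332 was 56.0 ± 1.3% at day 90 and 55.5 ± 0.3% at day 1. Of 27 ratios of a symbol's most abundant copy to its other tested copies, 24 gave an exact permutation p of 0.1 between the ages, the smallest possible, and the lowest p adjusted over the 27 was 0.113. Without the copies that met the FPKM minimum through 1 age alone, 19 of 22 ratios did not overlap between the ages. Reads shared by near-identical copies could be split between them in ways the sources used here do not state, so a value of 1 copy is less certain than the sum.

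**Figure D4:**
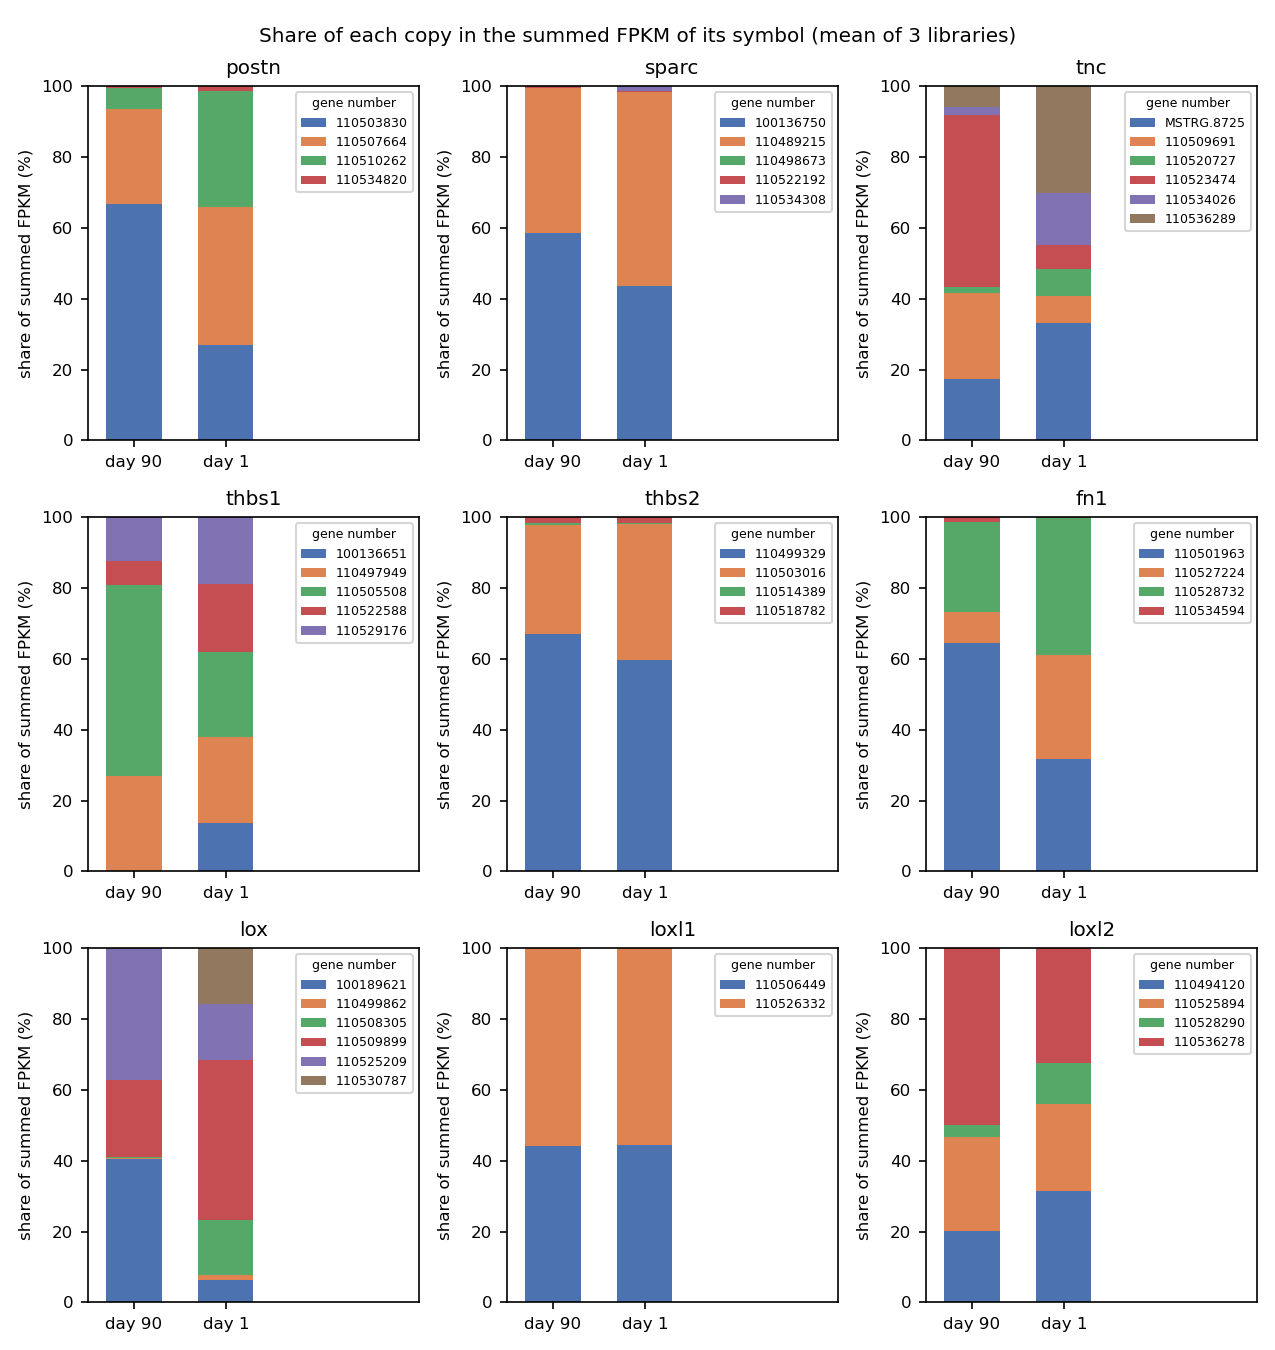
Share of each copy in the summed FPKM of its symbol, as the mean of 3 libraries, day 90 left and day 1 right, with colours for gene numbers within a panel. Postn (110503830), Lox (100189621), TNC (110523474) and FN1 (110501963) took larger shares at day 90, and the panel of loxl1 is alike at both ages.

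Copies were also compared by their chromosome neighbours. In the gene order of assembly USDA_OmykA_1.1, used for neighbours alone, 39 copies could be placed, all but TNC (MSTRG.8725). Each was given its 20 protein-coding neighbours on either side, and the deposited symbols of these neighbours were compared, leaving aside copy endings. Copies of one symbol that were each other's best match and shared at least 10 neighbour symbols formed 14 pairs, with 11 to 31 shared symbols. The 670 pairs of copies with different symbols that lay apart had a median of 1 shared symbol and a highest of 20, in TNC (110536289) and loxl2b (110525894), which is above the minimum of 10 used here. In 13 pairs both copies were tested, and 12 had the same sign of change. Among these 12 is the pair of loxl2b (110494120) and loxl2b (110528290). The second of them did not pass and changes sign with library size alone or limma. Both copies were called in only 8 pairs, all in the same direction, so only these could have been called in opposite directions. Among all pairs of copies of one symbol, 18 were called in opposite directions, in 5 symbols, in SPARC only through the row named SPARC-like protein 1. That count was not set against the number of such pairs. Without the 5 copies that met the FPKM minimum through 1 age alone, whose direction the filter fixed, 11 of 12 neighbour pairs had the same sign and 8 pairs of one symbol, in 3 symbols, were called in opposite directions. The risen Postn (110503830) and Postn (110507664) shared 31 symbols, the risen TNC (110509691) and TNC (110523474) 22, and TNC (110520727) and TNC (110534026), which had a level in the same day 90 library, 28. The risen Lox (100189621) and Lox (110509899) shared 23, and the fallen Lox (110508305) and Lox (110530787) 12. Between the risen and the fallen Lox pair 0 or 1 symbol was shared, and Lox (110525209) shared 0 to 2 with every other LOX row. The exception in sign was THBS1 (110505508) and THBS1 (110497949) with 20, of which the second did not pass and changes sign without day 1 replicate 1 or 2. TNC (110536289), which fell, lay 10 protein-coding genes from loxl2b (110536278), which rose. With the risen TNC (110509691) and TNC (110523474) it shared 1 and 2 neighbour symbols. These pairs are a description of gene order and were not tested against chance.

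Other genes of the same matrix were counted from lists of related proteins. In the order below, 82.5%, 92.0%, 88.1%, 80.6% and 69.2% of the tested genes of the 5 lists were called. Of all genes tested 67.9% were called, 32.5% higher and 35.4% lower, with a median log2 fold change of -0.03. The share of the last list, TGF-beta signalling, is near that of all genes. Among further matricellular proteins and relatives (57 tested) 27 were higher and 20 lower, with a median log2 fold change of 0.45. Ecm1 (110535961), which binds matrix proteins of skin, had 95.5 ± 6.1 FPKM at day 90 and 14.2 ± 1.6 FPKM at day 1 (3.13 ± 0.14, edgeR adjusted p = 1.23e-07), and thbs4b (110525779), a thrombospondin of tendon, 27.0 ± 4.6 and 1.09 ± 0.25 FPKM (5.03 ± 0.22). Tnr (110530311), a tenascin of the nervous system, had 0.05 ± 0.03 FPKM at day 90 and 3.56 ± 0.26 FPKM at day 1 (-5.90 ± 0.28), and Spock1 (110487720), for a proteoglycan of the SPARC family, 0.28 ± 0.07 and 4.88 ± 0.74 FPKM (-3.73 ± 0.22).

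Elastic fibre proteins and enzymes that act with lysyl oxidase (50 tested) were higher in 37 and lower in 9, with a median of 1.17. EFEMP1 (110486086), a fibulin, had 21.4 ± 2.1 FPKM at day 90 and 1.43 ± 0.27 FPKM at day 1 (4.27 ± 0.16, edgeR adjusted p = 5.95e-08), and EMILIN2 (110489938) 19.2 ± 0.9 and 1.59 ± 0.34 FPKM (3.99 ± 0.15). Emilin1 (110529171), a glycoprotein of elastic fibres, had 0.91 ± 0.17 FPKM at day 90 and 7.52 ± 1.67 FPKM at day 1 (-2.65 ± 0.19). MFAP4 (118936573), a microfibril protein, had no count at day 90 and 5.57 ± 1.31 FPKM at day 1, at least 82.0-fold lower against a floor of 3 counts summed over the day 90 libraries.

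Fibrillar and associated collagens (42 tested), substrates of the cross-linking enzymes, were higher in 21 and lower in 16, with a median of 1.10. COL1A1 (110503033), the main collagen of dermis and bone, had 2208 ± 147 FPKM at day 90 and 221 ± 14 FPKM at day 1 (3.71 ± 0.17, edgeR adjusted p = 1.42e-07), and COL14A1 (110489432) 12.5 ± 3.4 and 1.0 ± 0.10 FPKM (4.0 ± 0.18). Col11a1 (110535479), a collagen known from cartilage, had 25.2, 9.41 and 10.5 FPKM at day 90 and 245, 234 and 127 FPKM at day 1 (-3.28 ± 0.43), and COL5A1 (110487595) 10.6, 2.91 and 4.98 FPKM and 95.3, 91.3 and 50.5 FPKM (-3.25 ± 0.47). Both were highest of their age in day 90 replicate 1 and lowest of their age in day 1 replicate 3, as the tenascin copies 110520727 and 110534026 were.

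Receptors of these proteins (36 tested) were higher in 28 and lower in 1, with a median of 1.08. ITGB1 (118936350), a beta integrin chain that pairs with many alpha chains, had 22.3 ± 2.7 FPKM at day 90 and 1.47 ± 0.28 FPKM at day 1 (4.32 ± 0.18, edgeR adjusted p = 9.82e-08), and Itgb3 (110486231), which pairs with the alpha V chain to bind periostin and fibronectin, 16.4 ± 3.0 and 2.41 ± 0.59 FPKM (3.15 ± 0.18). The receptor gene that fell was ITGB8 (110496521), with 0.59 ± 0.07 FPKM at day 90 and 3.22 ± 0.19 FPKM at day 1 (-2.06 ± 0.17). Genes of TGF-beta signalling, which induces many of these matrix genes in mammals, (39 tested) included 17 higher and 10 lower ones, with a median of 0.34. Acvrl1 (110491967), a type I receptor of endothelium, had 12.2 ± 1.0 FPKM at day 90 and 4.59 ± 0.29 FPKM at day 1 (1.80 ± 0.10), and TGFB3 (110522636), a ligand, 2.32 ± 0.12 and 0.65 ± 0.14 FPKM (2.24 ± 0.22). Smad4 (110488280), the shared signal carrier, had 0.67 ± 0.19 FPKM at day 90 and 6.07 ± 0.70 FPKM at day 1 (-2.76 ± 0.19), and Tgfbr1 (110508669) 1.28 ± 0.13 and 4.26 ± 0.31 FPKM (-1.35 ± 0.13).

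The genes most like SPARC (100136750), the most abundant copy, over the 6 libraries were sought among 6387 other genes with a mean of at least 10 FPKM. By Pearson's r of log2(FPKM + 1), a description over libraries that share 2 ages, they were DCN (118936239) for decorin (r = 0.99992), MS4A4A (110486227), DPT (110524056) for dermatopontin, QNR-71 (110496588) and cygb2 (110486554) for a cytoglobin (r = 0.99972). DCN (118936239) had 333 ± 22 FPKM at day 90 and 58.8 ± 5.3 FPKM at day 1, and DPT (110524056) 117 ± 10 and 5.19 ± 0.83 FPKM. Both also stand on the list of fibroblast markers, and the others do not. MS4A4A (110486227) had 49.3 ± 1.6 and 10.5 ± 0.9 FPKM. QNR-71 (110496588), with the product name transmembrane glycoprotein NMB, had 48.0 ± 2.8 and 1.48 ± 0.34 FPKM, and cygb2 (110486554) 113 ± 7 and 13.95 ± 1.31 FPKM. The cell type behind the SPARC level was not tested.

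Day 1 replicate 3 was the lowest library of its age for 34 of the 36 copies tested, 94.4%, against 47.0% of all genes tested. Without it 32 of 36 copies passed, 21 higher and 11 lower, against 64.3% of all genes tested. Without day 90 replicate 1, 33 passed, 21 higher and 12 lower, against 67.5% of all genes tested. These libraries were picked by their levels. Without any other single library 29 or 30 copies passed, against 30 with all libraries. In those fits 60.9% to 67.6% of all genes tested passed. All 21 copies called higher stayed so in each of these fits.

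Of the 36 tested copies, 29 had an FDR under 0.05 in the authors' deposited table, and all 29 were called here in the same direction. The log2 fold change in the authors' deposited table minus that of edgeR had a median of -0.39 over these 36 copies, with differences of -0.87 to -0.37. A further 7 genes had the product name of one of these proteins and another symbol or none. Of these, a gene without a symbol named SPARC-like (110502514) had 4.48, 4.52 and 3.39 FPKM at day 90 and 0.28, 0.44 and 0.23 FPKM at day 1 (4.09 ± 0.28, edgeR adjusted p = 1.56e-06). TNXB (110496237), with the name tenascin-like, had 5.75, 3.12 and 2.48 FPKM at day 90 and 1.34, 1.23 and 0.62 FPKM at day 1 (2.48 ± 0.38, edgeR adjusted p = 0.000319). The others, 5 genes named fibronectin-like, were below the filter.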

How the data were processed

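RNA of 3 libraries per age was analysed from 1 deposited table. The authors deposited a whole-number read count and an FPKM value per gene and library, and a log2 fold change, a p-value and an FDR of day 90 over day 1, per the file headers. Per the submitters' processing notes, TopHat2 2.1.1 and Bowtie2 2.2.8 were used. Strand, build, counting of multi-mapped reads and the authors' test: not given in the sources used here, and no coordinates are given. Counts were scaled with TMM factors and fitted in edgeR 4.0.16 under R 4.3.3 (quasi-likelihood test, age alone in the model), with p-values adjusted by Benjamini and Hochberg's method over the 29436 genes with at least 1 FPKM in at least 3 libraries. The TMM factors were 0.83 to 0.92 at day 90 and 1.10 to 1.16 at day 1. An SE is the absolute log2 fold change divided by the root of F. The procedure was run on simulated data with 200 changed genes, as many up as down. That run does not show how it behaves on data in which most genes are called. Sums and ratios of copies (0.1 FPKM added) were tested by two-sided exact permutation. Alternatives used DESeq2 1.42.0 and limma 3.58.1, other scalings and filters, the replicate number as a block, and 5 libraries. Named are all copies, up to 2 genes per list and direction with the smallest adjusted p, and the 5 genes most like the most abundant copy. The copies, lists and tests were chosen with earlier results of these data known; the comparison of gene neighbours, the product-name matches, the counts of highest and lowest libraries and the counts without copies that met the minimum through 1 age were added after the values were seen. RefSeq symbols come from the gene table of assembly USDA_OmykA_1.1, in which 39 of 40 copies were found by gene number. A list gene was matched by symbol.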

Additional observations from a re-analysis of the deposited data

How the results depend on the processing

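The 21 copies called higher were called higher under all 14 alternatives. Of the 9 called lower, 8 were so under every alternative, and TNC (110534026) was lost under 4, named with the results. Copies past the threshold numbered 29 to 34 over the alternatives. THBS1 (110497949), which did not pass, had a log2 fold change of -0.454 with library size alone, and with 1 library left out it ranged from -0.226 without day 1 replicate 3 to 0.036 without day 1 replicate 2 and also changed sign without day 1 replicate 1 (0.022). The copy loxl2b (110528290), which did not pass either, changed sign to -0.053 with library size alone, -0.028 with limma on log2(FPKM + 1) and -0.034 with 0.1 added. The log2 ratio of summed fibronectin was 0.15 (exact permutation p = 0.6) in CPM, and the ratio of the LOXL1 copies differed between ages by -0.008 without day 90 replicate 2 and by up to 0.066 without day 90 replicate 1, against 0.035 with all libraries. With library size alone FN1 (110528732), TNC (110520727), THBS1 (110497949) and THBS1 (110529176) passed as lower. The median log2 fold change of all genes tested was -0.03 under TMM, -0.42 under library size alone and -0.33 under limma on log2(FPKM + 1), where 47.9%, 29.0% and 28.9% of calls were higher, so a log2 fold change near 0 has no firm sign. All genes called higher numbered 9563, against 6022 with library size alone and 6084 and 5989 with limma (1 and 0.1 added). With at least 5 FPKM, which tests fewer genes, 9742 passed, 4706 higher and 5036 lower. Labels give both ages replicates 1 to 3, but same-numbered libraries did not deviate together (correlations of -0.089, 0.004 and -0.123). With the replicate block 31 copies passed, against 30, TNC (110520727) being added. Depth limited the copies with few counts, such as SPARC (110498673), to statements of their counts.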
